A study of Mus musculus with 2 samples.

Results

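Advillin (*Avil*) and its relatives of the gelsolin family were followed in the mouse macrophage line RAW264.7, which serves as an osteoclast precursor, after transfection with scramble siRNA or with siRNA against *Flcn*, the gene of folliculin. The 7 genes are *Avil*, *Vil1*, *Gsn*, *Scin*, *Capg*, *Flii* and *Svil*, out of 18193 genes that the arrays measured with a probe set of their own. *Avil* was chosen by its fall in this very comparison, and the other 6 genes were added as members of the same protein family, so that the values below are a description and no test was run on them. All 16 probe sets that name only one of these genes were used, and no probe set named one of them together with another gene.

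Of 2 cultures of this line, 1 received the scramble siRNA and 1 a single siRNA sequence against *Flcn*, and the medium was changed 24 hours after transfection. RNA was taken 48 hours later from medium with 10% fetal calf serum, and neither the labels nor the array methods name RANKL, the cytokine that drives osteoclast formation. Each condition was measured once, on an Affymetrix Mouse Genome array with 45101 probe sets, so that the precision is limited by the number of arrays and no difference could be set against a spread between replicates. The whole culture was measured, so fewer cells of a type and less RNA per cell cannot be told apart, and an effect of the siRNA sequence cannot be told apart from that of lower *Flcn*.

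Gelsolin family proteins are built from repeats of a common actin-binding fold. They cut actin filaments, cap the growing filament end or bundle filaments, mostly under the control of calcium and membrane phosphoinositides, and several of them carry a small villin headpiece at their end that binds filament sides. In macrophages and osteoclasts they are known from phagocytic cups, ruffles and podosomes, the actin-rich contacts by which these cells attach and, in osteoclasts, seal off bone.

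Signals are linear intensities, scaled such that their trimmed mean (2% cut off at either end) was 100 on both arrays. The array medians were 12.8 with scramble siRNA and 13.6 with *Flcn* siRNA. Any signal under the median of its array was set to it, and the log2 ratio is that of the *Flcn* siRNA signal to the scramble siRNA signal. A probe set with a geometric mean of both signals of at least 13.2 was taken as above the signal filter, and a gene was called by its strongest probe set when the ratio reached 1.5-fold. The siRNA target itself was only modestly lower on the arrays. *Flcn* had signals of 208.6 and 145.4 at one probe set (log2 ratio -0.52) and of 240.9 and 206.2 at another (-0.22), and did not reach 1.5-fold. *Gpnmb*, a known target of the transcription factor Tfe3, had 294.3 and 2500 (3.09). Of 10 macrophage markers 10 lay above the filter, among them *Csf1r* with 5375 and 5318, and only *Fcgr1*, an Fc receptor with 1033 and 380, was called.

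Of the 7 genes, 5 lay above the signal filter and 1 of these, *Avil*, was called lower, while none was called higher. Over all genes above the filter, 5.54% were called lower, 5.87% higher and 11.4% in either direction, and since *Avil* was taken for its ratio, nothing is read from its count. The other 4 genes above the filter, *Gsn*, *Capg*, *Flii* and *Svil*, stayed within 1.5-fold at their strongest probe sets. *Vil1* and *Scin* lay under the array median on both arrays.

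*Avil* encodes advillin, a close relative of villin that is best known from sensory neurons and from tuft cells, chemosensory cells of epithelia. Its only probe set, 1419148_at, had a signal of 413.5 on the scramble siRNA array and of 31.3 on the *Flcn* siRNA array. This is 13.2-fold lower, a log2 ratio of -3.72, and the lower signal still lay above the median of its array. No second probe set stood beside it, so the fall rests on 1 probe set on 2 arrays.

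Falls of this size were rare on these arrays. *Avil* was chosen for its ratio on the same arrays, so its place among the lowest genes follows from that choice. Of 10285 genes above the filter, 113 were lower by at least 2-fold, 7 by at least 4-fold and 2 by at least 8-fold, and these 2 were *Avil* and *Car6*. Among 1626 genes with a scramble siRNA signal from 300 to 600, 11 were lower by at least 2-fold and *Avil* alone by at least 4-fold. That range was set around the signal of *Avil* and leaves out *Car6*, whose 624.1 lay just above it. The gene with the next lowest ratio in that range, *Ifi202b*, had 327.8 and 90.9 (log2 ratio -1.85), and the median log2 ratio of the range was -0.016.

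**Figure D1:**
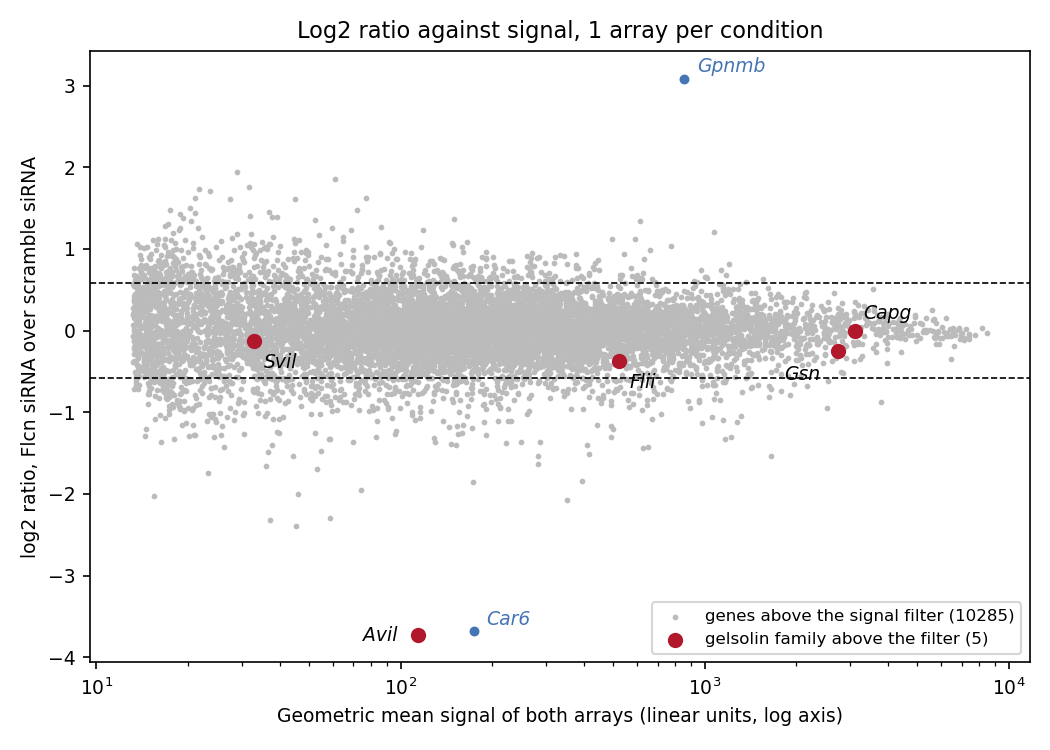
Log2 ratio between the *Flcn* siRNA and the scramble siRNA signal (vertical axis) against the geometric mean signal of both arrays (horizontal log axis) for genes above the signal filter, with 1 array per condition. Red points are the 5 gelsolin family genes above the filter, blue points are *Car6* and *Gpnmb*, and dashed lines mark 1.5-fold; *Avil* lies at -3.72 beside *Car6* at -3.68, while the other red points lie between the dashed lines.

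By the distance between log2 signals on the 2 arrays, the genes most like *Avil* were *Car6*, a secreted carbonic anhydrase (signals of 624.1 and 48.6, distance 0.87), *Pi16*, a peptidase inhibitor (145.9 and 37.8, distance 1.53), and *Ifi202b*, an interferon-inducible gene (distance 1.57). The 2 arrays give a pattern of only 2 points, and a fall in these genes follows from the way they were picked. The distance also compares signals of different probe sets, which are not on a common scale.

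*Vil1* (chromosome 1) encodes villin, which bundles the core of microvilli in gut and kidney epithelium. Its probe set had signals of 0.3 and 1, both far under the array medians, and no ratio is given. *Scin* (chromosome 12) encodes scinderin, a calcium-dependent severing protein known from secretory cells and from cells becoming osteoclasts. Its signals of 12.7 and 12.3 also lay under the medians of both arrays. *Vill*, which is not among the 7 genes, had weak signals of 19.7 and 25 (log2 ratio 0.34). The signals of *Vil1*, *Scin* and *Vill* are not ranked against each other, since signals of different probe sets are not on a common scale.

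*Gsn* (chromosome 2) encodes gelsolin itself, the calcium-activated protein that cuts filaments and then caps the new end, and which is known to be needed for podosomes in osteoclasts. Of its 6 probe sets, 4 lay above the filter, and 3 of these, the strongest included, carry the ending _x_at, which marks probe sets with probes that may also match other transcripts. Their signals with scramble and *Flcn* siRNA were 2987 and 2521 at the strongest (log2 ratio -0.24), 2203 and 1863 at the next (-0.24), 1852 and 1270 at the third (-0.55) and 1275 and 1050 at the weakest (-0.28). All 4 were lower with *Flcn* siRNA, with an SD of 0.15 between their log2 ratios, and none reached 1.5-fold. The other probe sets lay under the filter, and one of them, 1456569_x_at, had 4.5 and 29.9. The mean log2 ratio over all 6 probe sets was -8.5e-05.

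*Capg* (chromosome 6) encodes the macrophage capping protein, a short family member that caps filament ends without cutting them. At its strong probe set, 1450355_a_at, the signal was 3132 with scramble siRNA and 3115 with *Flcn* siRNA, a log2 ratio of -0.01. Its weak probe set, 1447803_x_at, pointed the other way, with 25.3 and 73.2 (2.89-fold higher, log2 ratio 1.53). This probe set, too, carries the ending _x_at. The SD between both probe sets of *Capg* was 1.09 on the log2 scale. Such an SD could be taken for 5034 genes, its median was 0.19, and in 12 genes, *Capg* included, it was as large. With the mean of all probe sets *Capg* was called higher (log2 ratio 0.76), and its direction thus depends on the probe set.

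*Flii* (chromosome 11) encodes flightless I, in which leucine-rich repeats are joined to the gelsolin fold and which also acts as a coactivator of nuclear receptors. Both of its probe sets above the filter were lower with *Flcn* siRNA, with 595.6 and 461.4 (log2 ratio -0.37) and with 421.1 and 315.8 (-0.42). The values were close to each other and short of 1.5-fold. The remaining probe set lay under the filter, with 7.4 and 14.5. *Svil* (chromosome 18) encodes supervillin, a large membrane-bound relative that binds myosin and has a role in podosome turnover. Its probe sets gave 34.4 and 31.4 (log2 ratio -0.13) and 22.8 and 21.1 (-0.11), so that a weak signal was nearly the same on both arrays.

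**Figure D2:**
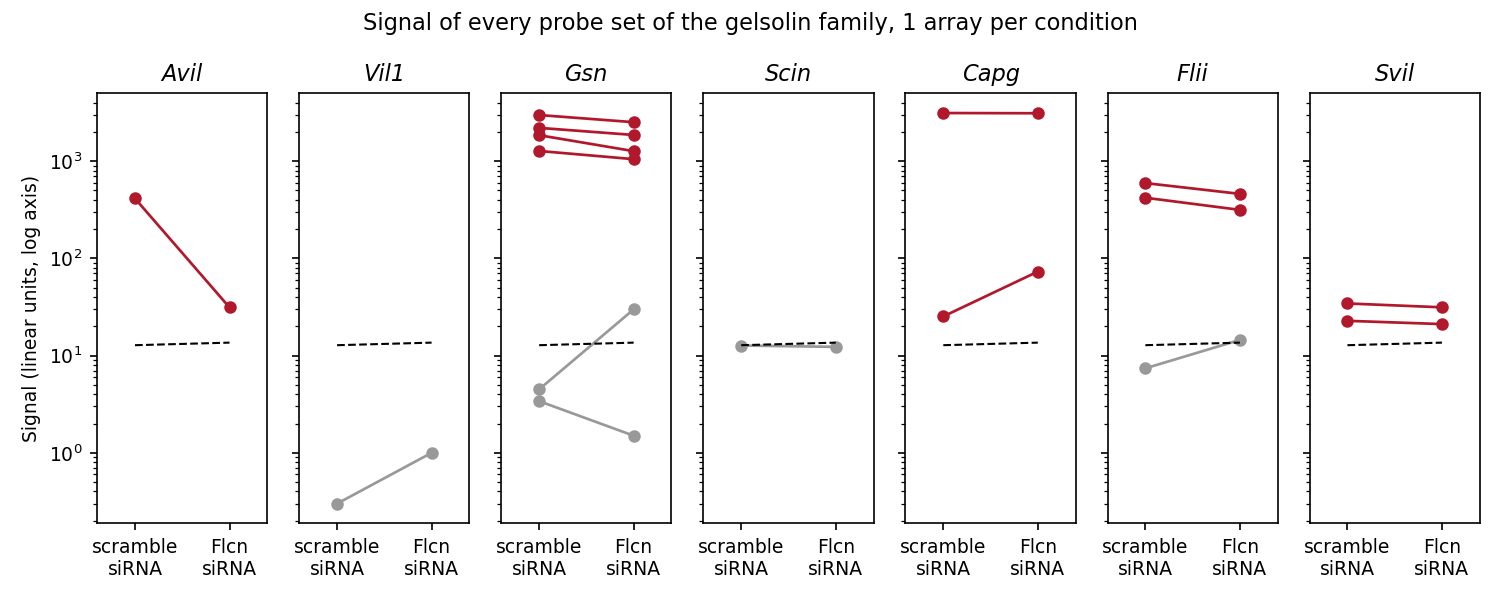
Signal of each of the 16 probe sets of the gelsolin family (vertical log axis, linear units) on the scramble siRNA and the *Flcn* siRNA array, joined by a line. Red lines are probe sets above the signal filter, grey lines those under it, and the dashed line joins the medians of both arrays; *Avil* falls from 413.5 to 31.3, while the 4 strong *Gsn* lines and the strong *Flii* lines slope slightly down and the upper *Capg* line is flat.

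Without *Avil*, which was chosen for its fall, the median log2 ratio of the other 4 genes above the filter was -0.19, against 0.013 over all genes above it. All 4 had a ratio below 0, as had 48.1% of all genes, but that of *Capg* was -0.01 and changed sign with the scaling, and 4 genes are too few to read a direction of the family from them. Scaling both arrays to a common median moved the median of all genes to -0.075. Of all called genes 51.4% were higher as reported (604 higher and 570 lower), and 34.0% under that scaling (418 higher and 810 lower). *Gsn* had -0.33, *Flii* -0.46 and *Svil* -0.22 under that scaling. *Capg* had -0.10 under that scaling but 0.0077 with quantile normalization.

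**Figure D3:**
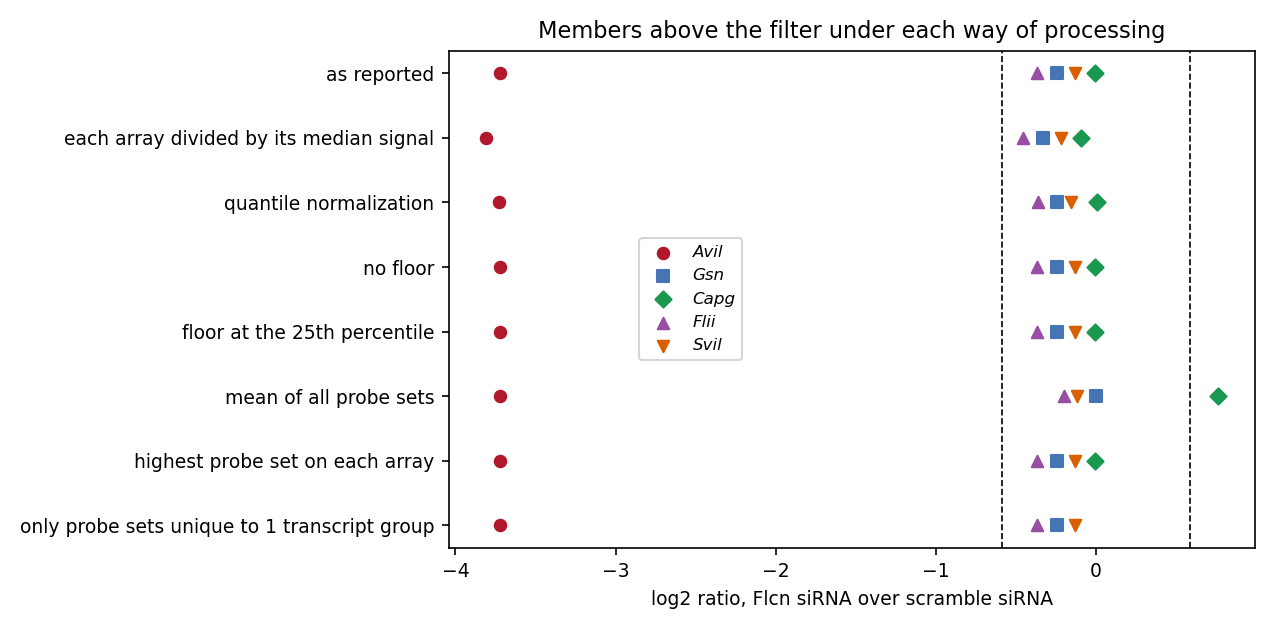
Log2 ratio between the *Flcn* siRNA and the scramble siRNA signal (horizontal axis) of the 5 genes above the signal filter, as reported and under each other scaling, floor and choice of probe set (rows). Dashed lines mark 1.5-fold; *Avil* lies between -3.81 and -3.72 in every row, and *Capg* passes a dashed line in the row for the mean of all probe sets (0.76), and has no probe set in the bottom row.

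Other genes of actin turnover give the setting of these values. Of 93 genes in 10 lists, 85 had a probe set of their own and 71 lay above the filter. Of these, 5 were called lower and 2 higher, which is 9.86% against 11.4% over all genes, and 35 had a log2 ratio below 0 and 36 above it, with a median of 0.0040. The share was near that of all genes. Only probe sets unique to 1 transcript group left 3 of these calls, and the mean of all probe sets left 4.

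Actin itself differed little, with signals of 5579 and 5968 for *Actb* (log2 ratio 0.10) and 4720 and 4789 for *Actg1* (0.02), and *Acta1*, the skeletal muscle isoform, was called higher on a weak signal of 13.9 and 21.8. Among 10 severing and disassembly genes none was called. The lowest were *Cfl2*, a cofilin, with 174.6 and 121.1 (log2 ratio -0.53), and *Coro7*, a coronin, with 661.3 and 483.8 (-0.45). The highest was *Wdr1*, which helps cofilin, with 961.2 and 1057 (0.14). Weaker probe sets of 2 coronins did pass 1.5-fold. The 6 of *Coro7* above the filter lay between -0.79 and -0.10, and the 3 of *Coro1c* between -0.83 and 0.28. *Cfl1*, the other cofilin, had 3766 and 4048 (0.10).

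Among 11 genes that cap filament ends, 1 was called. *Add3*, an adducin that caps filaments beneath the membrane, had 405.8 and 246.9 (log2 ratio -0.72), and its 4 probe sets lay between -1.26 and -0.51. The subunits of capping protein stayed close to 0, with 2392 and 2483 for *Capza1* (0.05), 1504 and 1317 for *Capza2* (-0.19) and 1120 and 1256 for *Capzb* (0.17). In the Arp2/3 complex, which starts branched filaments, *Arpc5l* was called lower with 1814 and 1114 (-0.70), and its probe sets above the filter lay between -0.88 and -0.35. Of the other 10 genes in that list none was called.

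Among formins and elongation factors *Evl*, a relative of VASP, was called lower with 185.3 and 121.4 (log2 ratio -0.61), but its other probe sets above the filter had -0.26 and 0.37. No gene was called among 4 monomer-binding, 7 bundling or 3 headpiece genes above the filter. Of 12 podosome genes, *Lsp1*, an actin-binding phosphoprotein of leukocytes, was called lower with 338.1 and 156.3 (-1.11), and *Zyx*, the focal adhesion protein zyxin, with 121.3 and 71 (-0.77). *Src*, a tyrosine kinase needed for bone resorption, was at least 2.15-fold higher with signals of 8.6 and 27.5, of which the first lay under the array median. *Itgb3*, the integrin subunit of osteoclast podosomes, lay under the median on both arrays. The 3 probe sets of *Pxn*, a podosome gene that was not called, lay between -0.23 and 0.62.

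**Figure D4:**
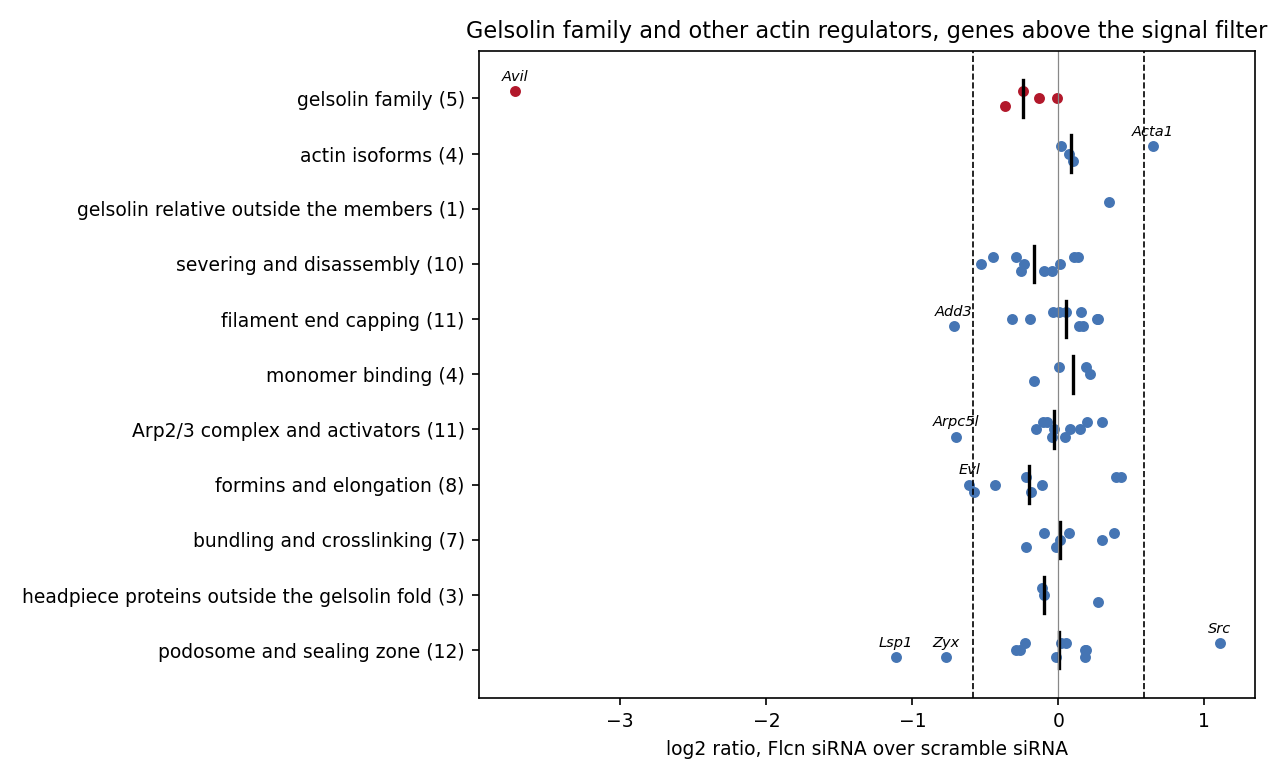
Log2 ratio between the *Flcn* siRNA and the scramble siRNA signal (horizontal axis) for each gene above the signal filter in the gelsolin family (red) and in 10 lists of other actin genes (blue), with the number of genes in parentheses. Black bars are medians of lists with at least 3 genes, dashed lines mark 1.5-fold and genes past them are named; *Avil* lies far to the left of every other gene shown, of which *Lsp1* is the lowest at -1.11.

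Markers of cell types that are known for *Avil* or *Vil1* were mostly under the signal filter. Sums over a marker list add signals of different probe sets, mostly near or under the array medians, and are given only to set both arrays side by side. Of 6 sensory neuron markers with a probe set none lay above the filter, and their signals summed to 23.2 with scramble and 39.8 with *Flcn* siRNA. Of 7 tuft cell markers 1 lay above it, *Sh2d6*, which had 129.6 and 26.5 (log2 ratio -2.29). The 7 markers summed to 159.1 and 86.9, but the other 6 without *Sh2d6* to 29.5 and 60.4, so that the lower sum came from *Sh2d6* alone. Among these 6, all under the filter, the tuft cell factor *Pou2f3* had 4.5 and 16.9, the transcription factor *Gfi1b* 5.5 and 25.7, and the channel *Trpm5* 7.5 and 3.1. Of 7 markers of absorptive epithelium 1 lay above the filter, *Epcam*, with 14.8 and 12.7, and the 7 summed to 32.9 and 57.6. In muscle and fibroblast lists *Ckm* (20.4 and 9.1) and *Col1a2* (18.3 and 12.7) were the only genes above the filter, and *Ckm* was at least 1.5-fold lower. Whether *Sh2d6* or cells of any of these types have a part in the fall of *Avil* was not tested.

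The neighbours of *Avil* were taken from RefSeq (GRCm38.p6). *Avil* lies on mouse chromosome 10, and the nearest genes with a probe set of their own are *Ctdsp2*, a phosphatase, on one side and *Tsfm*, a mitochondrial elongation factor, on the other. *Ctdsp2* had signals of 355.6 and 339.3 (log2 ratio -0.07) and *Tsfm* 278 and 322.1 (0.21), so that the fall was not seen in either neighbour. *Atp23* and *Mettl1*, the next measured genes on each side, had log2 ratios of 0.08 and -0.09. All 7 genes together had 13 nearest measured neighbours, of which 12 lay above the filter and 1 was called. Over all genes above the filter 11.4% were called, so nothing is read from this count. The called neighbour was *Sh2d6*, the gene next to *Capg* on chromosome 6.

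The RefSeq start regions of the genes differed in base composition. Windows of 300 bases, from 250 before to 50 after a transcript start, were taken for 6 of the 7 genes, 8 windows in all, and *Svil* was not used here. The window of *Avil* held 43% G and C and 2 CpG dinucleotides, against medians of 52.7% and 7 over 32851 windows, while that of *Flii* held 70% and 26. A low number of CpG was not particular to *Avil*, since the 3 windows of *Gsn* held 2, 16 and 20, that of *Vil1* 5, that of *Capg* 7 and that of *Scin* 16. The 250 bases before the start are printed for *Avil* and *Flii*, whose windows had the lowest and the highest share of G and C of the 8, 5′ to 3′ on the strand of the gene, with each CG in capitals. The *Avil* window, chr10:127000459-127000708 (GRCm38.p6, plus strand), lies within the annotated span of the gene, downstream of its first annotated base, and that of *Flii* is chr11:60727264-60727513 (minus strand).
Avil: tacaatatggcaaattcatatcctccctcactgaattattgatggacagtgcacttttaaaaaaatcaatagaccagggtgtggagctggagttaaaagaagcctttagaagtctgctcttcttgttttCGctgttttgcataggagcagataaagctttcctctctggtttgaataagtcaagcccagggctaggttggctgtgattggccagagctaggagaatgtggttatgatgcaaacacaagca
Flii: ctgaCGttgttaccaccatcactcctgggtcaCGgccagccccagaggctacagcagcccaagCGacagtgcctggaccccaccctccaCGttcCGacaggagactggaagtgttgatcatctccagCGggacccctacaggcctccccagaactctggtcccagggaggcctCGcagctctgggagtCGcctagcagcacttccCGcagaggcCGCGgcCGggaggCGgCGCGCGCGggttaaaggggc

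The first sequence holds a single CpG in these 250 bases and the second 17. Letters that the Tfe3 family is known to bind were searched on both strands. CACGTG was found in none of the 8 windows and in 7.15% of all windows, and TCATGTG in none and in 3.77%. The CCAAT box, which was added after the letters had been seen, was found in 3 of the 8, among them that of *Avil*, and in 37.4% of all windows. A match or its lack describes these letters only.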

How the data were processed

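Total RNA of 1 culture per condition was hybridised to Affymetrix Mouse Genome arrays. The deposited values are linear signal intensities, which the authors obtained from the scans in GCOS. The scaling settings and detection calls were not used here. Of 45101 probe sets, 64 controls, 9160 that the platform annotation does not list and 932 with several genes were left out. The other 34945 name 1 gene, and 34741 of them were given current symbols through their Entrez ID in the RefSeq table of GRCm38.p6. Where a gene had several probe sets, that with the largest geometric mean over both arrays stood for it. Every probe set was floored at the median of its array, and 10285 genes passed the filter. No test across arrays was possible with 1 array per condition. The SD between probe sets of a gene is technical and is no replicate error.

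Described were the 7 genes at every probe set, *Flcn* and *Gpnmb*, the genes nearest to *Avil*, the nearest measured neighbours, and called or extreme genes of each list. The 7 genes, the 10 actin lists and the 6 marker lists were chosen with earlier results of these data known. Neighbours of genes other than *Avil* and the CCAAT box were chosen after values or letters were seen. The functions were tested on simulated data. Protein sequences were not analysed here. Alternatives covered scaling, floor, choice of probe set, signal filter and call threshold. Python 3.11.15, numpy 2.4.6, pandas 2.3.3 and matplotlib 3.10.9 were used.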

Additional observations from a re-analysis of the deposited data

How the results depend on the processing

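The log2 ratio of *Avil* ranged from -3.81 to -3.72 over 7 alternatives, but with 1 probe set and both signals above every floor only the 2 scalings could move it, and the 5 changes of floor or probe set could not. Of 40 values of the other family genes, *Vil1* and *Scin* at the floor included, 38 moved by less than the median SD between probe sets. Many of these 38 were identical to the values reported. The changes of floor could not move *Gsn*, *Capg*, *Flii* or *Svil*, and the highest probe set on each array moved no member. The exceptions came with the mean of all probe sets, which gave *Gsn* -8.5e-05 and *Capg* 0.76, so that 2 of the 7 genes were called in place of 1; that mean weighs weak probe sets like strong ones. Uniqueness to 1 transcript group was judged by the ending alone, and any letter before _at, as in _a_at or _x_at, counted against it. By that rule *Capg* and *Scin* have no unique probe set, and both lack a value there. The strong probe set of *Capg*, 1450355_a_at, was left out in this way. The called genes of the 10 actin lists numbered 7, but 4 with the mean of all probe sets, 3 with unique probe sets and 2 at 2-fold. Of all genes, 1174 were called, 481 with the filter at the 75th percentile and 200 at 2-fold, settings that by construction let fewer genes pass. The medians of 9 actin lists moved by less than the median SD between probe sets under 10 alternatives, but 37 of these 90 values were identical to those reported, those at 2-fold by construction. No paired analysis was possible because each condition had 1 array. Signals near or under the array median, as for *Vil1* and *Scin*, carry no ratio, and the fall of *Avil* has neither a second probe set nor a second array.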

Other observations

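In the RefSeq gene table the villin-like genes stand in similar surroundings, an arrangement that was noticed after the neighbours of *Avil* had been listed. *Avil*, *Vil1* and *Vill*, on chromosomes 10, 1 and 9, each follow a gene of the small C-terminal domain phosphatases and a microRNA gene of the miR-26 family, namely *Ctdsp2* with *Mir26a-2*, *Ctdsp1* with *Mir26b* and *Ctdspl* with *Mir26a-1*. The order was not identical. The microRNA and phosphatase genes stand 1 and 2 steps before *Vil1*, but 1 and 3 before *Vill*. They stand 2 and 3 steps before *Avil*, with *Mir546* nearer to it. Of the phosphatase genes, *Ctdsp2* had signals of 355.6 with scramble and 339.3 with *Flcn* siRNA (log2 ratio -0.07), and *Ctdsp1* had 189.6 and 164.4 (-0.21), both within 1.5-fold. *Ctdspl* had 1.8 and 2.9, under the median on both arrays, and no ratio is given. The microRNA genes have no probe set of their own.

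*Sh2d6*, which lies directly beside *Capg* on chromosome 6, had 129.6 and 26.5, while *Capg* had 3132 and 3115 at its strong probe set and *Elmod3*, on the other side, had 46.6 and 48.4 (log2 ratio 0.05). *Mief2*, next to *Flii* on chromosome 11, had 114.6 and 79.9 (-0.52), and *Llgl1*, on the other side of *Flii*, had 231.9 and 241 (0.06). None of these pairs has a replicate check.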
